A study of Mus musculus with 51 samples.

Results

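The 5hmC peaks of cultured MC3T3-E1 osteoblasts and of mouse femur, both supplied with VitC, were compared on chromosomes 1 to 19. The members were the peaks of the 2 VitC+ hMeDIP-seq peak lists on those chromosomes, 253424 in MC3T3-E1 cells and 371568 in femur, or 624992 of the 1723677 peaks in the 6 5hmC lists of the series. The 4272 cell peaks on other chromosomes or contigs were set aside, and the femur list held 0 such peaks. A peak was called shared where it overlapped a peak of the other VitC+ list by at least 1 bp, and private where it did not.

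5-hydroxymethylcytosine (5hmC) is the product of the TET dioxygenases, which oxidise 5-methylcytosine and need Fe(II), 2-oxoglutarate and, for full activity, vitamin C (VitC). The mark sits mainly in the bodies and distal regulatory regions of active genes, is low at CpG-rich start sites, and its placement differs strongly between cell types. hMeDIP-seq pulls down DNA fragments with an antibody to 5hmC, so a peak marks a stretch rich in the mark and not a single base. MC3T3-E1 is a pre-osteoblast line from newborn mouse calvaria, the flat bone of the skull roof, which lays down and mineralises collagen when given VitC and a phosphate donor. Bone lining cells, osteoblasts and osteocytes share the femur with blood-forming marrow and are surrounded by skeletal muscle.

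The series follows 5hmC, histone marks and RNA in bone of mice that cannot make VitC and in MC3T3-E1 cells. The VitC+ femurs came from homozygous Gulotm1Mae mice on a C57BL/6 background, which lack the last enzyme of VitC synthesis, given VitC at 3.3 g/L in drinking water until 20 weeks of age (n = 3). Per the series' design text, marrow was flushed out and the periosteum removed, and the study's methods add that the DNA came from decalcified femurs. The VitC+ cells were MC3T3-E1 subclone 4, a single clone, at passages 7 to 10, grown for 28 days with 4 mM β-glycerophosphate and 50 µg/ml VitC (n = 2 by the labels). The other 4 lists were VitC- MC3T3-E1 cells (n = 2, the same culture without VitC), VitC+- femurs (n = 3, Gulotm1Mae mice given VitC for 15 weeks and none until 20 weeks), Ctrl femurs (n = 3, wild-type Tet alleles with Prrx1-Cre, 11 weeks of age) and Tet1/2 cKO femurs (n = 3, floxed Tet1 and Tet2 deleted by Prrx1-Cre, which is active in limb mesenchyme, 11 weeks). The Ctrl and Tet1/2 cKO mice carry no Gulo mutation by the labels. Each list was called on pooled samples, so there was 1 list per group, no replicate value and no test between lists.

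The peaks shown here are those with the highest -log10 p of their kind, outside exons, within 30 kb of the main bone genes (shared and private to the cells), marrow genes (both private kinds) and muscle genes (private to femur), shown because shared and private 5hmC differ in CpG content. Each run is 200 bases around the summit on the plus strand of GRCm38, from the RefSeq genome, with CpG sites, the main sites of methylation, in capitals.
Runx2, shared, chr17:44821273-44821472: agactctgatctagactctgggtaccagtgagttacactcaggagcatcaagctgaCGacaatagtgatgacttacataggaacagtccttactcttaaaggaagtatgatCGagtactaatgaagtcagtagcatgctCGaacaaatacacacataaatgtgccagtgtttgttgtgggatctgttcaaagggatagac
Runx2, private to the cells, chr17:44819916-44820115: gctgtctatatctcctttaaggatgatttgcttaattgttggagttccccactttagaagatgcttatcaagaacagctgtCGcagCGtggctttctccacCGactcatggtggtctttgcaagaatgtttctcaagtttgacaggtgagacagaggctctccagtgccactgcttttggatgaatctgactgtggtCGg
Fli1, private to the cells, chr9:32516621-32516820: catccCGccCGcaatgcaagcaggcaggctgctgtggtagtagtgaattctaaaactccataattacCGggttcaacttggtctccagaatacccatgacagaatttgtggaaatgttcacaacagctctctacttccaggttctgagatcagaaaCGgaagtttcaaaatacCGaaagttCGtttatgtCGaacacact
Klf1, private to the femur, chr8:84879453-84879652: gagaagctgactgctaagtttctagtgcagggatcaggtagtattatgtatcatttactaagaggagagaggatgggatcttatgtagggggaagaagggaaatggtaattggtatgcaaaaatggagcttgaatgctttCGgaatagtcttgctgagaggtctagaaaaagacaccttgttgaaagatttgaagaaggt
Myh4, private to the femur, chr11:67229118-67229317: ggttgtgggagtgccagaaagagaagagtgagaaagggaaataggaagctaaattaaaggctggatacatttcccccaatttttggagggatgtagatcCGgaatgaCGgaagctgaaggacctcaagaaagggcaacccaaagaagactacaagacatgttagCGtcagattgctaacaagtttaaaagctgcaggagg

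Runx2 encodes the master transcription factor of osteoblasts, and its shared and cell-private peaks had summits at -6576 and -5219 bp from the annotated start site, upstream of it, both in an intron of the overlapping gene Supt3. The shared Runx2 stretch, with 3 CpG sites, was fully covered by peaks in the VitC+ cells and in the VitC+, VitC+- and Ctrl femurs, and not at all in VitC- cells or Tet1/2 cKO femurs. The cell-private Runx2 stretch, with 4 CpG sites, was fully covered in VitC+ and VitC- cells and also in Ctrl and Tet1/2 cKO femurs, but not in the VitC+ or VitC+- femurs. A peak private to the cells against the VitC+ femur list was therefore not private against all femur lists.

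Fli1 encodes an ETS factor of megakaryocytes and vessel cells, and its cell-private stretch held 7 CpG sites in an intron 26711 bp into the gene. The femur-private stretch near Klf1, the erythroid Krüppel-like factor, held 1 CpG site in an intron of Syce2, was fully covered in VitC- cells and both Gulotm1Mae femurs, and had no cover in Ctrl or Tet1/2 cKO femurs. The femur-private stretch near Myh4, a fast muscle myosin heavy chain, held 3 CpG sites, as many as the shared Runx2 stretch. It had its summit at -8594 bp, upstream, and was fully covered in VitC- cells and in all 4 femur lists.

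Of the cell peaks, 118291 (46.7%) were shared with the VitC+ femur, and of the femur peaks, 132512 (35.7%) were shared with the cells. The exact 95% binomial interval was 46.5% to 46.9% for the cells and 35.5% to 35.8% for the femur, which covers counting error only. It takes the peaks of a list as independent, which was not tested, and holds no spread between samples. The lists covered 195 Mb in cells and 175 Mb in femur, or 7.92% and 7.12% of the chromosomes. The bases in both lists came to 57.3 Mb, which was 29.4% of the cell bases, 32.7% of the femur bases and 18.3% of their union. Cell peaks were wider, with a median of 537 bp against 372 bp.

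Stronger peaks were shared more often in both lists. Among cell peaks ranked by -log10 p, 35.1% of the weakest 10% and 75.3% of the strongest 10% were shared. Among femur peaks, these shares were 21.7% and 63.8%. Shared peaks were also wider than private ones, with medians of 682 and 451 bp in cells and 451 and 344 bp in femur. Wide peaks meet an overlap of 1 bp more often, and the part of width in these shares was not tested. The median fold enrichment of shared and private cell peaks was 5.97 and 4.67, and that of shared and private femur peaks was 5.11 and 3.99. Over the 118291 shared cell peaks, the fold in cells and the highest fold among the overlapping femur peaks had a Spearman correlation of 0.17, a description over peaks of the same 2 lists. The share of cell peaks that were shared ran from 38.7% on chromosome 11 to 53.7% on chromosome 3, and the share of femur peaks from 26.7% on chromosome 14 to 43.6% on chromosome 19.

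The other lists placed the private peaks differently. The midpoints of 75.05% of the femur-private peaks lay in a VitC+- femur peak, against 7.11% of the chromosomes that this list covers, and 24.4% lay in a Ctrl femur peak, against 11.0% covered. Of the cell-private peaks, 2.26% had their midpoint in a VitC+- femur peak, below the share of the chromosomes covered. This low share follows in part from the definition, since cell-private peaks overlap no VitC+ femur peak. Of the femur-private and shared femur peaks, 77.8% and 77.9% overlapped a VitC+- femur peak. The midpoints of 45.6% of the cell-private peaks lay in a Ctrl femur peak and 23.5% in a Tet1/2 cKO femur peak (4.97% covered). The shared peaks were found in both kinds of femur, with 71.6% of the shared femur peaks in the VitC+- and 71.1% in the Ctrl femur list. In VitC- cells, which cover 5.85% of the chromosomes, the midpoints of 16.6% of the cell-private, 28.7% of the shared cell and 28.3% of the femur-private peaks were found. The share of cell-private peaks found in the Ctrl femur list was thus above that in the VitC- cell list, which covers less of the chromosomes.

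**Figure D1:**
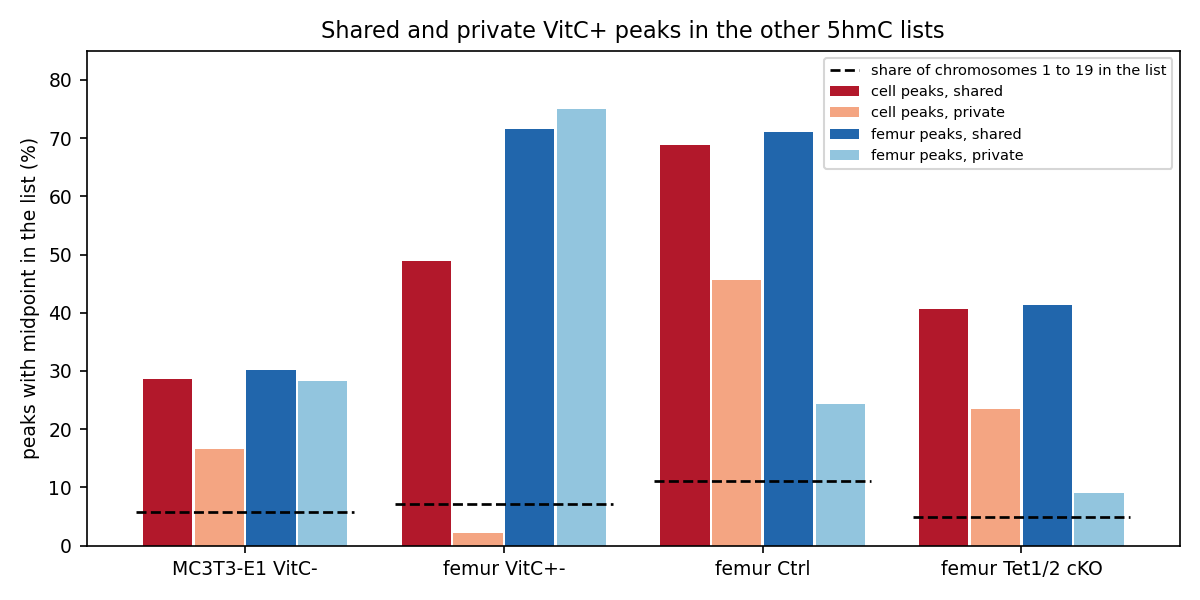
Share of peaks (%) with the midpoint in each of the other 4 5hmC lists, for shared and private peaks of the VitC+ cells and VitC+ femur, with dashed lines at the share of chromosomes 1 to 19 that each list covers. Cell-private peaks stand at 2.26% in VitC+- femur and 45.6% in Ctrl femur, and femur-private peaks at 75.05% and 24.4%.

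Peaks of each kind also differed in base composition. Chromosomes 1 to 19 have a GC content of 41.9% and 0.851 CpG sites per 100 bp. Cell-private peaks had 46.6% GC and 1.47 CpG sites per 100 bp, while femur-private peaks had 38.9% GC and 0.788 CpG sites, with the shared peaks between (43.2% in the cell list and 40.0% in the femur list). No CpG site at all was present in 11.5% of the femur-private peaks, against 0.145% of the cell-private and 0.829% of the shared femur peaks. Bases masked as repeats in the RefSeq genome made up 31.3% of the femur-private peaks, 19.1% of the cell-private peaks and 33.5% of the chromosomes. Fragment GC, peak calling and cell type cannot be told apart between lists of 1 per group, and the part of base composition in the results for genes was not tested.

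By the midpoint, 48.0% of the cell-private, 58.1% of the shared cell, 59.8% of the shared femur and 42.6% of the femur-private peaks lay in introns of protein-coding genes, which make up 36.1% of the chromosomes. Promoters, taken as 1 kb on either side of a start site, held 3.07% of the cell-private and 0.896% of the femur-private peaks, against 1.58% of the chromosomes. Exons held 5.15% of the cell-private and 2.41% of the femur-private peaks (2.98% of the chromosomes). Regions more than 3 kb from any gene held 39.2% of the cell-private and 51.4% of the femur-private peaks, against 56.4% of the chromosomes.

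Around the start sites of 20558 protein-coding genes, both lists had a gap at the start and a shoulder on either side. Peaks covered 5.26% of the bases at the start in cells and 1.79% in femur. Within 3 kb of the start, the cell list was densest 700 bp upstream, where 19.1% of bases were covered, and the femur list 1700 bp downstream, with 11.2%. The Ctrl femur list, with 5.71% at the start and 25.04% at 1900 bp downstream, had the same form. The bases in both VitC+ lists reached 5.78% within 3 kb of the start and 0.771% at it.

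**Figure D2:**
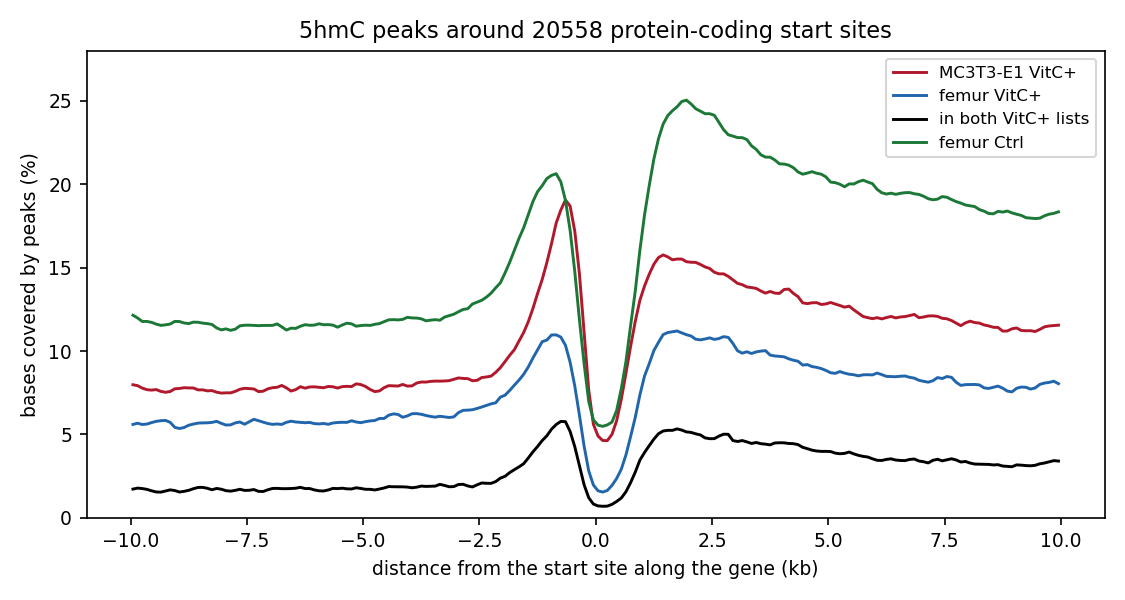
Bases covered by peaks (%) in 100 bp steps from 10 kb before to 10 kb after 20558 protein-coding start sites, for VitC+ MC3T3-E1, VitC+ femur, the bases in both, and Ctrl femur. Each line dips near the start, with 5.26% at it in cells and 1.79% in VitC+ femur, between higher values on both sides.

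Short words that lineage factors bind were counted within 300 bp around each summit, on both strands, beside 7986009 windows of that length across the chromosomes. A word in the sequence is a description and not a binding site. The AP-1 word TGAGTCA occurred in 7.18% of the cell-private, 6.61% of the shared cell, 5.65% of the shared femur and 4.36% of the femur-private peaks, and in 4.71% of all windows. The RUNX word TGTGGT, bound by RUNX2 in bone and RUNX1 in blood, occurred in 27.6%, 25.3%, 21.5% and 17.9% in the same order (20.2% of windows). The E-box CAGCTG, bound by MYOD and other basic helix-loop-helix factors, occurred in 17.7% of the cell-private and 5.96% of the femur-private peaks (10.8%). The GATA word AGATAA ran the other way, with 14.1% of the cell-private and 23.6% of the femur-private peaks (19.1%). The PU.1 word GAGGAAGT, of a myeloid and B-cell factor, lay between 1.95% and 2.1% in all 4 kinds of peak (1.81%), and the TEAD word GGAATG between 16.1% and 18.4% (15.9%). The GC content of the peaks moved with these shares, and its part in them was not tested.

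Repressive histone marks were mapped in MC3T3-E1 cells with VitC, grown for 28 days by the labels and 7 days by the study's methods. H3K27me3, the Polycomb mark, covered 5.87% of the chromosomes and overlapped 6.22% of the cell-private and 3.22% of the shared cell peaks. It overlapped 7.504% of the femur-private and 2.78% of the shared femur peaks. H3K9me3, the mark of constitutive heterochromatin, covered 1.75% of the chromosomes and overlapped between 1.04% and 1.66% of each kind of peak. An overlap of at least 1 bp was counted, which is more often met by wide peaks. These shares are thus not on the scale of the share of chromosomes covered.

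For each gene, the bases covered by peaks within 30 kb of the start site were summed in each list, and the cells were set against the femur as log2 of the ratio after 1000 bp was added to each. This fixed window of 60 kb makes genes comparable per length. The median over all genes was 3821.5 bp in cells and 2751.5 bp in femur, and the median log2 ratio was 0.03. At least 2 fold more covered length was found in cells for 5414 genes (26.3%) and in femur for 4369 genes (21.3%), which are the shares beside which the list counts stand. A bulk sample cannot tell fewer cells that carry the mark from less of the mark per cell. Gulo itself, the gene mutated in the femur mice, had 1171 bp covered in cells and 1953 bp in VitC+ femur.

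The ratio moved with the GC content of the window. Across 20558 genes the Spearman correlation was 0.68, a description over genes that share the same lists and are not independent. With the genes in 5 equal bins by GC, the median log2 ratio ran from -1.04 in the lowest bin to 1.55 in the highest. Against the Ctrl femur list the correlation was -0.32, and the medians of these bins ran from 0 to -0.79. List medians are therefore given against both femur lists and after centring on genes of like GC. After that centring, 11.8% of all genes were at least 2 fold higher in cells and 15.5% at least 2 fold higher in femur. Against the Ctrl femur, 3.69% of all genes had at least 2 fold more covered length in cells and 26.2% at least 2 fold more in femur, with a median of -0.45.

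**Figure D3:**
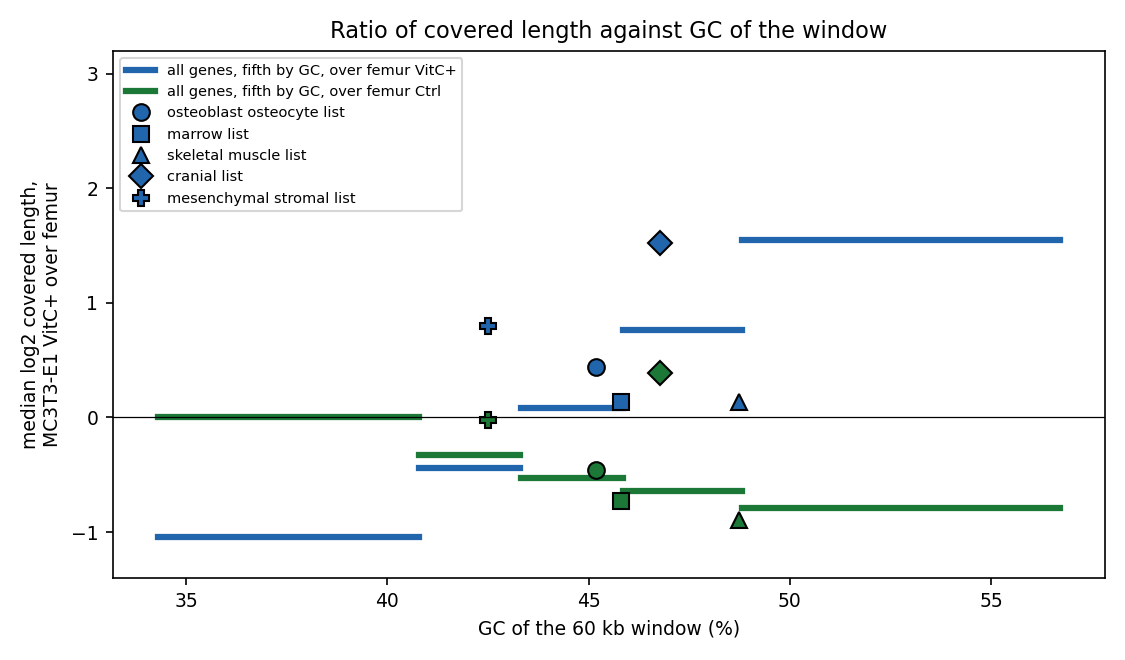
Median log2 ratio of covered length, VitC+ MC3T3-E1 over VitC+ femur (blue) or Ctrl femur (green), for all genes in 5 bins by GC of the 60 kb window in % (horizontal bars) and for 5 gene lists (symbols at the list's median GC). The blue bars climb from -1.04 to 1.55 and the green bars descend from 0 to -0.79.

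Genes of osteoblasts and osteocytes were rich in 5hmC in both materials. Of the 30 listed genes, 29 lay on chromosomes 1 to 19. Their median covered length was 17010 bp in VitC+ cells and 11748 bp in VitC+ femur, and 24 and 27 of the 29 exceeded the median of all genes in these lists. The median log2 ratio was 0.44, with 9 genes at least 2 fold higher in cells and 4 at least 2 fold higher in femur. Centred on genes of like GC, the median was 0.23, with 4 genes higher in cells and 4 in femur (11.8% and 15.5% of all genes). Against Ctrl femur it was -0.46, close to the -0.45 of all genes, with 0 genes higher in cells and 6 in femur.

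The regulators and early matrix genes show both patterns. Runx2 (chr17:44495987-44814797, minus strand) had 27989 bp covered in VitC+ cells, 8467 bp in VitC- cells, 18713 bp in VitC+ femur, 17423 bp in VitC+- femur, 23792 bp in Ctrl femur and 9805 bp in Tet1/2 cKO femur. Both VitC+ materials were thus high, with 14338 bp in common and a log2 ratio of 0.56. Sp7, the osterix gene downstream of Runx2, had 16281 bp in VitC+ cells and 7791 bp in VitC- cells, against 3187, 2905, 10894 and 9049 bp in the femurs in the same order. Its log2 ratio of 2.05 came with a low level in both Gulotm1Mae femur lists and a middle level in the other femur pair. Col1a1, the main chain of type I collagen (chr11:94936224-94953042, plus strand), had 22282 bp in VitC+ cells and 10331 bp in VitC- cells, against 3701, 1377, 20838 and 16088 bp. Its log2 ratio was 2.31 against the VitC+ femur, while the Ctrl femur lay close to the cells. Alpl, the alkaline phosphatase that frees phosphate for mineral, was also lowest in the Gulotm1Mae femurs, with 22218 and 8838 bp in cells and 4950, 2136, 28823 and 19073 bp in the femurs.

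Among the matrix and mineral genes, Ibsp (bone sialoprotein) had 21102 bp in VitC+ cells and 19857 bp in VitC+ femur. Spp1 (osteopontin) had 18049 and 19665 bp. Mepe and Dmp1, matrix proteins of osteocytes encoded on the same stretch of chromosome 5, had log2 ratios of -0.04 and -0.26, and all 4 genes exceeded the median gene in both materials. The windows of Ibsp and Mepe overlap. Bglap, the osteocalcin gene, had 12925 bp in VitC+ cells, 4662 bp in VitC- cells, and 6654, 2959, 20882 and 10967 bp in the femurs. Bglap2 lies beside it, and their windows overlap.

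Of the 29 osteoblast genes, 4 were at least 2 fold higher in VitC+ femur. Sost, the osteocyte inhibitor of Wnt signalling, was not one of them, with 2882 bp in VitC+ cells and 3342 bp in VitC+ femur, against 23613 bp in Ctrl femur, and 49086 bp of its window were under H3K27me3 in the cells. Wif1, another secreted Wnt inhibitor, had 1416 bp in VitC+ cells and 18992 bp in VitC+ femur (log2 ratio -3.05), with 24551 bp in Ctrl femur and 14583 bp under H3K27me3. Enpp1, which makes the mineral inhibitor pyrophosphate, had 564 bp in VitC+ cells and 15548 bp in VitC+ femur (log2 ratio -3.40). Tnfsf11, the osteoclast-inducing ligand RANKL, had 2240 and 12537 bp (log2 ratio -2.06), and Dkk1 4471 and 16361 bp (-1.67). Wif1, Enpp1, Tnfsf11 and Dkk1 were these 4 genes, and with 13520 to 26116 bp in Ctrl femur they were above the cells there too.

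**Figure D4:**
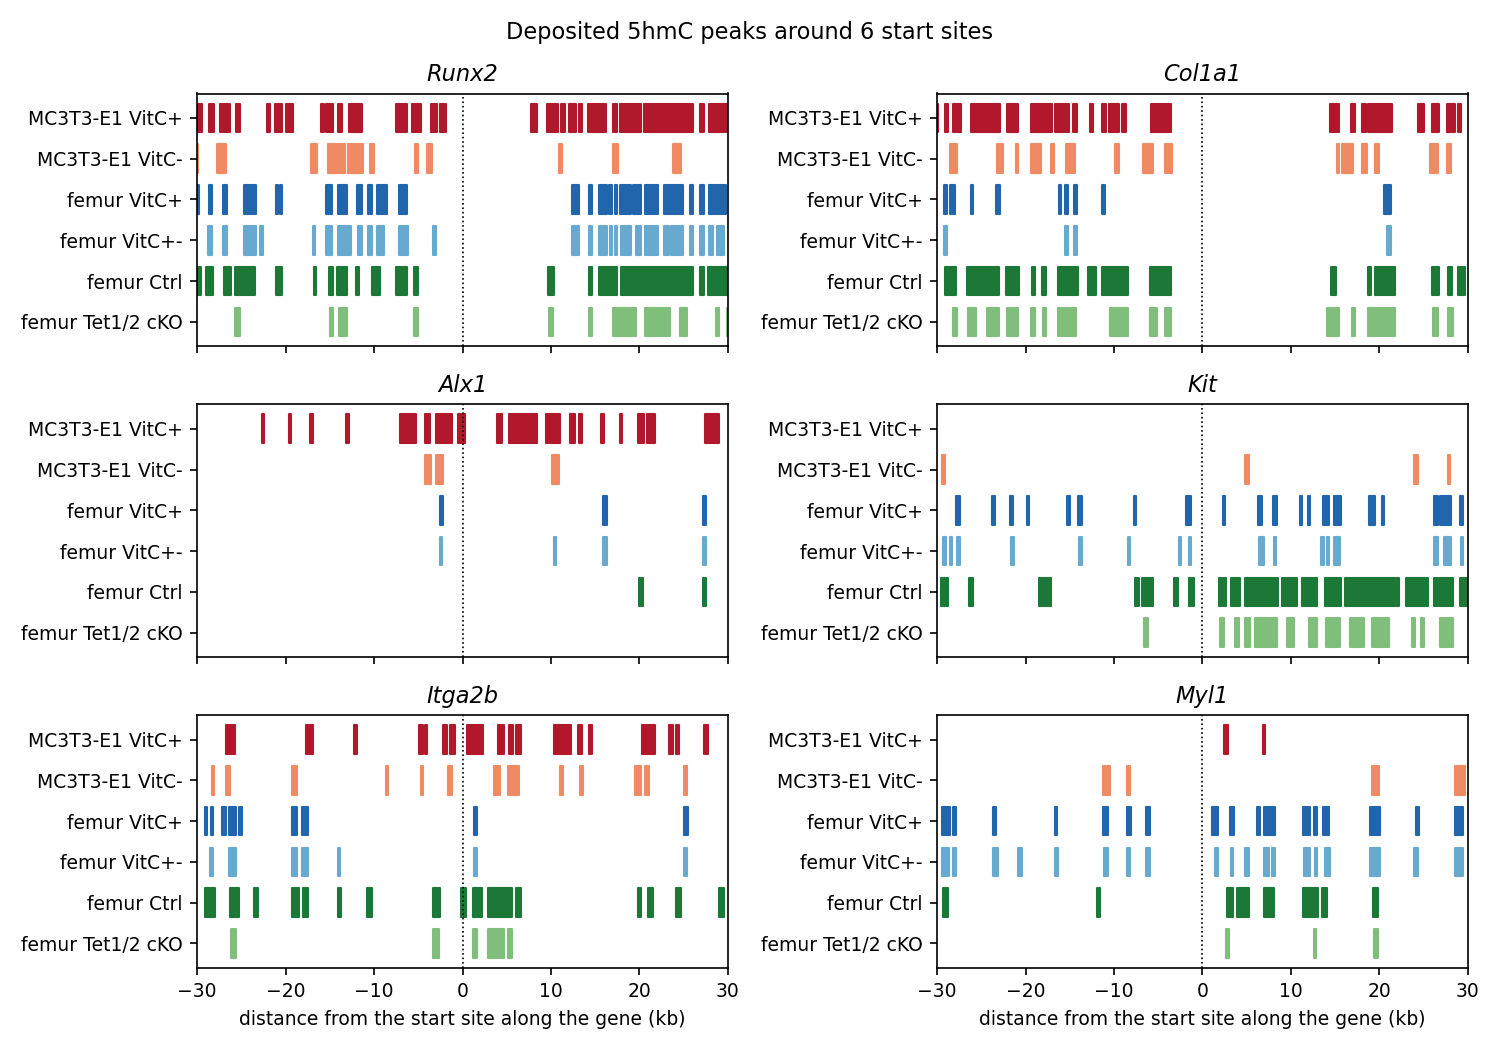
Deposited peaks (boxes) in the 6 5hmC lists within 30 kb of the start sites of Runx2 and Col1a1 (osteoblast), Alx1 (cranial), Kit and Itga2b (blood) and Myl1 (muscle), by distance along the gene in kb. Runx2 is covered in both VitC+ materials, Col1a1 mainly in the cells and the Ctrl and Tet1/2 cKO femurs, Alx1 mainly in VitC+ cells, and Kit in the femurs but not in VitC+ cells.

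The 59 genes of Bone60, a set of bone-selective genes that the study defined from RNA of many tissues and followed in these samples, are not independent evidence of direction. Of 57 on chromosomes 1 to 19, 25 were at least 2 fold higher in cells and 10 in VitC+ femur, with a median log2 ratio of 0.86 (0.17 after centring on genes of like GC and -0.49 against Ctrl femur). Mesenchymal and stromal genes were also rich in 5hmC in both materials, with 17094 bp in cells and 8417 bp in VitC+ femur, and 6 of 20 were at least 2 fold higher in cells and 0 in femur. Their median log2 ratio was 0.80, and 0.88 after centring on GC. Against Ctrl femur it was -0.02, with 1 gene higher in cells and 2 in femur. Prrx1, a limb and skull mesenchyme factor, had 20122 bp in VitC+ cells, 13115 bp in VitC- cells and 19449, 15887, 17125 and 14637 bp in the VitC+, VitC+-, Ctrl and Tet1/2 cKO femurs, so it was high in all 6 lists. Its paralogue Prrx2 had 25284 and 13175 bp in cells, but 326 and 578 bp in the Gulotm1Mae femurs and 19466 and 8971 bp in the other pair. Fn1 (fibronectin) had 33728 bp in VitC+ cells, 14582 bp in VitC+ femur and 31619 bp in Ctrl femur, and Cdh11, the mesenchymal cadherin, 24042, 20784 and 12917 bp.

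Blood genes as a group had no more covered length in VitC+ femur than the median gene. Over the 5 marrow lists, 95 of 98 genes were measured, with a median covered length of 2298 bp in VitC+ cells and 2684 bp in VitC+ femur, against 3821.5 and 2751.5 bp for all genes. In VitC+ femur, 46 of the 95 exceeded the median of all genes, and in VitC+ cells 36 did. The median log2 ratio was 0.14, with 28 genes at least 2 fold higher in femur and 23 in cells. Centred on genes of like GC it was -0.35, with 27 higher in femur and 9 in cells (15.5% and 11.8% of all genes). Against Ctrl femur it was -0.73, with 41 and 6. By list, the medians against VitC+ femur ran from -0.80 for general blood genes through -0.14 for B cells, 0.04 for erythroid cells and 0.12 for neutrophils to 0.68 for megakaryocytes. Centred on genes of like GC, the order was another one, with -0.79 for neutrophils, -0.67 for general blood genes, -0.37 for erythroid cells, -0.07 for B cells and 0.21 for megakaryocytes. Against Ctrl femur the medians were -1.44 for general blood genes, -1.27 for neutrophils, -0.45 for megakaryocytes, -0.42 for B cells and -0.38 for erythroid cells.

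Several blood genes had no or nearly no peak in VitC+ cells. Of the 95 marrow genes, 16 had 0 bp there, beside 4168 of all 20558 genes, so this was not particular to blood genes. Kit, the stem cell factor receptor (chr5:75574987-75656722, plus strand), had 0 bp in VitC+ cells and 1468 bp in VitC- cells, against 9144, 5630, 27452 and 13699 bp in the VitC+, VitC+-, Ctrl and Tet1/2 cKO femurs. Ptprc, the pan-leukocyte antigen CD45, had 543 bp in VitC+ cells and 9650 bp in VitC+ femur, but also 4688 bp in VitC- cells. Ikzf1, the lymphoid factor Ikaros, had 0 bp and 2122 bp, with 2687 bp in VitC- cells. For Kit and Ptprc the femur lists all lay above VitC+ cells, and for Ptprc the Tet1/2 cKO femur, at 3710 bp, lay below VitC- cells.

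Other defining blood genes had more covered length in the cells than in the VitC+ femur, though most had less than in Ctrl femur. Runx1, the blood stem cell factor that osteoblast precursors also express, had 14436 bp in VitC+ cells, 9592 bp in VitC+ femur and 44582 bp in Ctrl femur. Spi1, which encodes PU.1, had 14778 and 4296 bp, with 29562 bp in Ctrl femur. Ebf1, a B-cell factor also active in stroma, had 19973 and 16835 bp with 9253 bp in common, and 23756 bp in Ctrl femur. Itga2b, the platelet integrin, had 12955 and 4123 bp, with 12192 bp in Ctrl femur, and Fli1 23528 and 17540 bp, with 36148 bp. Elane (neutrophil elastase) had 6413 and 1314 bp, with 19293 bp in Ctrl femur, and Csf3r, the G-CSF receptor, 2800 and 254 bp, with 3559 bp.

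A last group had under 3000 bp in both VitC+ lists. Pax5, the B-cell commitment factor, had 267 bp in VitC+ cells, 354 bp in VitC+ femur and 0 bp in Ctrl femur, with 53599 bp of its window under H3K27me3 in the cells. Cd79a, of the B-cell receptor, had 2396 and 1382 bp, and Mpo, myeloperoxidase, 1381 and 1016 bp, although in Ctrl femur these were at 11622 and 6958 bp. The erythroid genes Tal1 (1768 and 1088 bp), Klf1 (2814 and 1421 bp) and Slc4a1 (2334 and 951 bp) differed by less than 2 fold after 1000 bp was added. Of the 95 marrow genes, 73 had some H3K27me3 in the VitC+ cells (76.8%), against 57.1% of all genes and 10 of the 29 osteoblast genes.

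Skeletal muscle genes were spread around the median gene, which 12 of 30 exceeded in VitC+ cells and 14 in VitC+ femur. The 30 genes had a median of 1881.5 bp in VitC+ cells and 2088 bp in VitC+ femur, a median log2 ratio of 0.13, and 8 genes at least 2 fold higher in each direction. Centred on genes of like GC, the median was -0.63, with 8 higher in femur and 3 in cells (15.5% and 11.8% of all genes). Against Ctrl femur the median was -0.90, with 13 and 1 (26.2% and 3.69% of all genes). Myl1, a fast muscle myosin light chain (chr1:66924295-66947932, minus strand), had 672 bp in VitC+ cells, 3043 bp in VitC- cells, and 10118, 9922, 6670 and 1101 bp in the femurs. It had the lowest log2 ratio of the list, -2.73. Myh4 had 489 and 4081 bp (-1.77). The myogenic factor Myog had 1712 and 3376 bp. Myod1 (0 and 979 bp), another myogenic factor, was below the median gene in both VitC+ materials, as were Ttn (957 and 1644 bp), the giant sarcomere protein titin, and Ryr1 (321 and 745 bp), the calcium release channel. Tnnt3, a fast troponin, had 8510 and 3321 bp with 14345 bp in Ctrl femur, Acta1, skeletal actin, 3445 and 0 bp with 371 bp, and Ckm, muscle creatine kinase, 901 and 226 bp with 4715 bp. Of the 30 genes, 26 had H3K27me3 in the VitC+ cells.

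**Figure D5:**
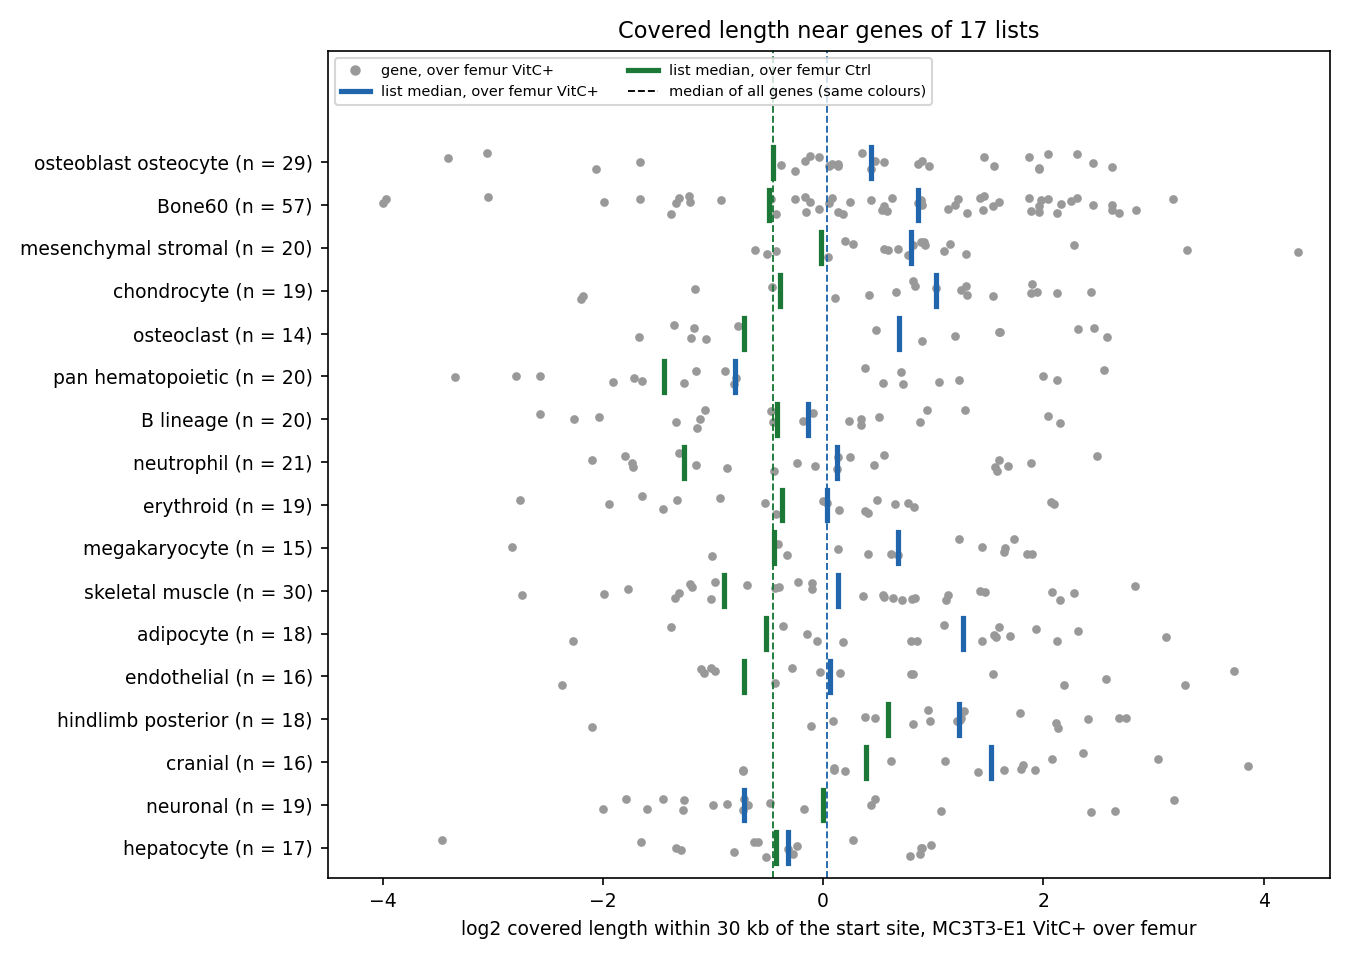
log2 ratio of covered length within 30 kb of the start site, VitC+ MC3T3-E1 over VitC+ femur, for each gene of 17 lists (points), with list medians over VitC+ femur (blue) and over Ctrl femur (green) and dashed lines at the medians of all genes (0.03 and -0.45). The cranial and posterior limb lists lie right of both dashed lines, and general blood genes left of both.

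The lists of skull and of hindlimb genes both had a median above 0 before centring on GC, and after it only the skull list did. MC3T3-E1 cells come from calvaria, much of which derives from the neural crest, and the femur from the hindlimb. Of 16 cranial genes, 10 were at least 2 fold higher in cells and 0 in VitC+ femur, with a median log2 ratio of 1.52, 0.59 after centring on GC, and 0.39 against Ctrl femur, where 7 were higher in cells and 0 in femur. Alx1, a craniofacial homeobox gene (chr10:103007847-103029549, minus strand), had 16075 bp in VitC+ cells and 2177 bp in VitC- cells, against 1080, 1279, 728 and 0 bp in the VitC+, VitC+-, Ctrl and Tet1/2 cKO femurs. Tfap2b, a neural crest AP-2 factor, had 14872 and 8289 bp in cells and 2085, 3465, 626 and 297 bp in the femurs. Lmx1b, active in skull and dorsal limb, had 16799 and 4219 bp in cells and 227, 469, 3202 and 1152 bp. All 4 femur lists lay below both cell lists for Alx1, Tfap2b and Lmx1b. Alx4, by contrast, had 17927 bp in VitC+ cells, 3984 bp in VitC+ femur and 24531 bp in Ctrl femur. Dlx1 had 16948, 5752 and 12113 bp.

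Genes of posterior and hindlimb identity were not lower in the calvarial cells as a list. Of 18 genes, 10 were at least 2 fold higher in cells and 1 in VitC+ femur (median log2 ratio 1.23, but -0.20 after centring on GC), and against Ctrl femur 8 were higher in cells and 5 in femur. The Hoxa genes Hoxa9, Hoxa10, Hoxa11 and Hoxa13 had between 17805 and 22253 bp in VitC+ cells and between 2181 and 4377 bp in VitC+ femur. In Ctrl femur Hoxa9 had 18460 bp, close to the cells, and the others between 6269 and 10612 bp. Hoxc9 and Hoxc10 had 16809 and 14450 bp in VitC+ cells, 6473 and 7006 bp in VitC+ femur and 2282 and 1475 bp in Ctrl femur. Pitx1, which sets hindlimb identity, was the gene higher in femur, with 238 bp in VitC+ cells against 4304, 3171, 5714 and 2202 bp in the 4 femur lists, and was chosen for naming after its values were seen. Neighbours in a Hox cluster lie within one window of each other and are not independent.

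Cartilage, fat and osteoclast genes, for which the labels give no separate cells, had median log2 ratios above 0. The 19 chondrocyte genes had a median log2 ratio of 1.02, with 10 higher in cells and 3 in femur. Matn3 had 24644 bp in cells, 15160 bp in VitC+ femur and 20562 bp in Ctrl femur, and Sox9, the master factor of cartilage, 14465, 5499 and 12431 bp. The 18 adipocyte genes had a median of 1.27, with 10 higher in cells and 2 in femur, among them Pparg, the fat cell factor, with 23875 and 7235 bp (6593 bp in Ctrl femur), Lep (leptin) with 28202 and 2375 bp (6388 bp) and Cebpa with 17927 and 4830 bp (15296 bp). Adipoq and Fabp4 had log2 ratios of 0.18 and -0.05. Of 14 osteoclast genes, 6 were higher in cells and 5 in femur, with Nfatc1 at 19415 and 5707 bp (35920 bp in Ctrl femur) and Car2 at 6384 and 11636 bp (15393 bp). The 16 endothelial genes had a median of 0.06, with 5 higher in cells and 4 in femur, although Flt1, a VEGF receptor, had 15905 and 275 bp (7803 bp in Ctrl femur) and Eng (endoglin) 13381 and 471 bp (21597 bp, above the cells). The chondrocyte, adipocyte, osteoclast and endothelial medians against Ctrl femur were -0.39, -0.52, -0.72 and -0.72, beside -0.45 for all genes, and after centring on GC 0.37, 0.14, 0.016 and -0.072.

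Lists of neuronal and liver genes had the lowest median covered lengths of all lists in VitC+ cells. The 19 neuronal genes had a median of 0 bp in VitC+ cells and 1169 bp in VitC+ femur. Of them, 10 had no peak in the cells, beside 4168 of all 20558 genes. The 17 hepatocyte genes had medians of 1003 and 1840 bp. In VitC+ femur the cranial and endothelial medians, 1452 and 1546 bp, lay below that of hepatocyte genes. The neuronal and hepatocyte median log2 ratios were -0.72 and -0.31, with 0 and -0.43 against Ctrl femur and -0.72 and -0.43 after centring on GC. Marrow and muscle medians of 2684 and 2088 bp in VitC+ femur lay between those of hepatocyte and all genes.

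The RNA of VitC+ femurs was measured in 3 other libraries, as RPKM (reads scaled by transcript length and library size). Gulo read 0.180, 0.0352 and 0.0294 RPKM in replicates 1, 2 and 3. The 29 osteoblast genes had median RPKM of 34.9, 37.4 and 41.6 in the 3 libraries, and 91 marrow genes 11.1, 21.5 and 21.97, against 1.76, 2.42 and 2.76 for 19361 genes with a value. The neutrophil list reached medians of 285, 679 and 513 RPKM with a median of 2004 bp covered in VitC+ femur. S100a9, of the neutrophil list, had 9934, 21235 and 15749 RPKM and 4450 bp covered, and Col1a1 1747, 1395 and 3168 RPKM and 3701 bp. S100a9 thus had more RNA than Col1a1 in each library and a similar covered length in the VitC+ femur list. In Ctrl femur the covered lengths were unlike, with 1946 bp for S100a9 and 20838 bp for Col1a1.

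Muscle RNA stood apart in 1 library, with list medians of 0.25, 17.8 and 0.84 RPKM in replicates 1, 2 and 3. Acta1 had 5.15, 171 and 5.21 RPKM and Myl1 2.21, 155 and 4.18 RPKM. Whether the 5hmC pools hold such a sample was not tested, since the lists are pooled. Genes with at least 2 fold more covered length in cells had median femur RPKM of 3.94, 4.90 and 5.76 in the 3 libraries, and those with at least 2 fold more in femur 0.04997, 0.0769 and 0.0589. These 2 groups of genes also differed in GC, with window medians of 49.0% and 40.9%. Their median covered length in VitC+ femur was 1898.5 and 2835 bp, beside 2751.5 bp for all genes. Across 19361 genes the Spearman correlation of femur RPKM with covered length was 0.33, 0.35 and 0.36 for the VitC+ femur list and 0.51, 0.50 and 0.52 for the VitC+ cell list, a description over genes of the same libraries. The part of GC in these values was not tested.

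Over all protein-coding genes with at least 5000 bp in the higher list, the extremes were named by rank, as a description with no test. The highest log2 ratios were those of Zfp469 (34113 bp in cells and 0 bp in VitC+ femur, 5.13), H1f8 (24464 and 0 bp, 4.67), Ip6k3 (4.54), Prrx2 (4.31), Ttyh3 (4.22), Grk3 (4.18), Rapgef3 (4.18), Necab2 (4.17), Nsg1 (4.14) and Fzd2 (4.14). In Ctrl femur these genes had between 5215 bp (Fzd2) and 40159 bp (Rapgef3) covered, so none of the 10 lacked peaks there. The lowest were Hpgd (0 bp in cells and 24661 bp in VitC+ femur, -4.68), Pde7b (-4.65), Klf12 (-4.53), Gucy1a1 (-4.46), Pcsk5 (-4.32), Col25a1 (-4.29), Auts2 (-4.20), Ptprz1 (-4.15), Dok5 (-4.12) and Adamts3 (-4.07). Hpgd degrades prostaglandins, and its RNA was at 18.7, 35.1 and 46.0 RPKM, the highest of these 10 genes in each library. Gucy1a1 came next with 4.50, 7.18 and 9.74 RPKM, while Adamts3 had 0.460, 0.572 and 0.788 RPKM. In Ctrl femur the femur-high genes had between 9657 bp (Adamts3) and 35499 bp (Dok5), and in VitC- cells between 1241 bp (Adamts3) and 6451 bp (Dok5). The femur-high genes were thus high in both kinds of femur, while the cell-high genes, with at most 764 bp in the VitC+- femur, were low in both Gulotm1Mae lists and, apart from Fzd2, above the Ctrl median of all genes (7027.5 bp) in Ctrl femur. The ranked ratios were not centred on GC. Window GC ran from 48.4% (Fzd2) to 54.0% (Necab2) for the cell-high genes. For the femur-high genes it ran from 38.2% (Hpgd) to 45.5% (Dok5), beside a median of 44.6% for all genes.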

How the data were processed

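Peaks were taken as the authors deposited them. The submitters' processing notes name Trim Galore 0.4.3.1, BWA 0.7.15.1, MACS2 2.1.1.20160309.6 and STAR 2.6.0b-1, with the mm10 genome, which is GRCm38. Peaks were called on pooled samples at an FDR of 0.05 by the study's methods, which name 3 samples per pool there and, like the labels, 2 MC3T3-E1 samples elsewhere. The deposited fold enrichment of a peak is a ratio over the local background, and its -log10 p and -log10 q values are deposited by the authors from MACS2. The histone lists reach below this FDR, to a -log10 q of 1.01. RNA values are RPKM per gene as deposited by the authors. RNA of the other femurs and histone lists without VitC were not used here. The depth of the hMeDIP-seq libraries is not given in the sources used here.

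Overlaps, covered lengths and base composition were computed with Python 3.11.15, numpy 2.4.6 and pandas 2.3.3, and the interval code equalled base-by-base counts in 50 of 50 simulated rounds. Genes, start sites and sequences are those of RefSeq on GRCm38. With 1 list per group no test was made, and the called threshold was 2 fold. The members and gene lists were chosen with earlier results of these data known. Of the marrow genes 3, and of the osteoblast genes 1, were not among the protein-coding genes of chromosomes 1 to 19. Named genes were priority genes of the bone, marrow and muscle lists and other members of those lists, up to 6 genes of each other list with the most covered length, the 10 highest and 10 lowest ratios with start sites over 60 kb apart, and Gulo. Alternatives were other overlaps, windows and thresholds. The Ctrl, VitC+- and VitC- lists as stand-ins and the centring on GC (20 bins of genes) were added after the data were seen. Values of 2 listed genes are not reported here.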

Additional observations from a re-analysis of the deposited data

How the results depend on the processing

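The share of cell peaks in the VitC+ femur list, 46.7%, was 42.5% with an overlap of at least 50% of the shorter peak, 45.5% at a -log10 q of at least 5, 43.2% for the strongest peaks up to 100 Mb per list and 46.4% as the median over 19 chromosomes. It was 63.6% with the Ctrl femur list and 39.7% with the VitC+- femur list in its place. The share of femur peaks in the cell list, 35.7%, was 32.4%, 33.2%, 23.3% and 35.2% in the same order, and 34.9% with the VitC- cell list. The osteoblast median log2 ratio, 0.44, was -0.067 by number of peaks, -0.13 for the strongest peaks and -0.46 against Ctrl femur, where the medians of all genes were -0.26, -0.19 and -0.45. The marrow and muscle medians, 0.14 and 0.13, were -0.73 and -0.90 against Ctrl femur. They were -0.35 and -0.63 centred on genes of like GC, and -0.41 and -0.29 for the strongest peaks. The other alternatives moved each median less. Osteoblast genes higher in cells went from 9 to 0 against Ctrl femur and to 4 centred on genes of like GC. The share of all genes higher in cells also fell, from 26.3% to 3.69% and 11.8% in the same order. Marrow genes higher in femur went from 28 to 14 in a 10 kb window and 16 over the gene body with 3 kb on either side. Muscle genes higher in femur went from 8 to 3 in either of these, 5 for the strongest peaks and 13 against Ctrl femur. All genes gave 20.8% higher in femur at a -log10 q of at least 5, 9.91% in the 10 kb window and 15.5% centred on GC. They gave 12% over the gene body with 3 kb on either side, 22.9% for the strongest peaks and 26.2% against Ctrl femur. The cause of these moves was not tested.

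Leaving out 1 femur RNA library at a time, the osteoblast list's median of mean RPKM (37.0) lay between 29.1 and 37.6, marrow (19.6) between 16.5 and 23.5, and muscle (6.80) between 0.587 without replicate 2 and 9.72. At a -log10 q of at least 5, presence in other lists moved by 2.40 to 5.43 percentage points, positions by -2.11 to 1.82 and GC by -0.26 to 0.11. No paired analysis was possible because each peak list pools its samples. The stand-in lists and the GC centring were chosen after seeing the data. With 1 list per group and unknown depth, a peak missing from a list is not shown to be absent.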
